A study of Mus musculus with 12 samples.

Results

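The telomerase and shelterin genes described here are 10 mouse genes, of 24422 features in the count tables: the telomerase genes Tert, Dkc1 and Wrap53, and the shelterin genes Terf1, Terf2, Terf2ip, Tinf2, Acd, Pot1a and Pot1b. They were chosen by gene symbol. All 10 were found in the tables and all 10 passed the filter on low counts. RNA-seq counts were available for 12 libraries of stromal cells from mouse adipose tissue, which the series text calls the SVF (the stromal vascular fraction, the progenitor, vascular and immune cells that remain once fat cells are taken off). The 4 groups had 3 libraries each. SD control was p21+/mcherry on Standard Diet (replicates 1, 2 and 3), and HFD control was p21+/mcherry on High Fat Diet (replicates 15, 17 and 20). HFD Tert was p21+/mcherry-Tert on High Fat Diet (replicates 25, 26 and 27), and HFD TertCi was p21+/mcherry-TertCi on High Fat Diet (replicates 30, 31 and 33), where TertCi is a catalytically inactive Tert. Every group, controls included, carried 1 modified p21 allele, so no wild-type library entered any comparison. The cassette ran from the promoter of p21, whose gene symbol is Cdkn1a, and so was expressed in whichever cells used that promoter. The cells kept their own Tert gene, and the tables do not separate its reads from those of the cassette under the name Tert. The series text describes the high-fat diet controls as p21+/- without mCherry; the sample labels were followed. Strain, age, sex, fat depot, length of the diet and the number of animals per library were not in the labels, so the p-values measure the spread between these libraries.

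Telomeres are the repeat-bearing ends of chromosomes, which shorten as cells divide. Telomerase lengthens them: Tert is the reverse transcriptase, the RNA Terc is its template, Dkc1 (dyskerin) stabilises that RNA, and Wrap53 (TCAB1) brings the enzyme to Cajal bodies and telomeres. Shelterin protects the ends from being read as DNA breaks. Terf1 and Terf2 (TRF1 and TRF2) bind double-stranded repeats, Terf2ip (RAP1) binds TRF2, Tinf2 (TIN2) links the complex, and Acd (TPP1) joins it to the POT1 proteins on the single strand and recruits telomerase. Mice have a pair of POT1 genes, Pot1a and Pot1b, where humans have a single one. Most differentiated mammalian cells hold little Tert, and p21, a cyclin-dependent kinase inhibitor, is induced when p53 responds to damaged telomeres.

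The members were read at low to moderate levels. Levels are given as CPM, the usual depth-normalised count, computed on library sizes scaled by TMM, a factor that balances libraries of different composition, and are compared between genes only after division by the length of the merged exons in kb. Over the 12 libraries, Terf2 (6.44 ± 0.582 CPM per kb, SD, n = 12) and Tinf2 (6.42 ± 1.95) stood highest. Acd (5.73 ± 0.688), Terf2ip (5.33 ± 1.52), Dkc1 (4.35 ± 0.884) and Wrap53 (4.08 ± 1.22) followed. Lower levels were found for Terf1 (2.29 ± 0.600 CPM per kb), Tert (1.206 ± 1.051), Pot1a (1.16 ± 0.282) and Pot1b (0.975 ± 0.248). The Tert mean pooled libraries with and without the cassette. By group, Tert was at 0.382 ± 0.306 CPM per kb (SD, n = 3) in SD control and 0.250 ± 0.062 in HFD control. In each that was the lowest mean of the members, under Pot1b in SD control (0.759) and Pot1a in HFD control (0.936). Tert was at 1.89 ± 0.882 in HFD Tert and 2.30 ± 0.551 in HFD TertCi. The order within single libraries varied. Among the 9 members other than Tert, Tinf2 ranked from 1 to 6 and Wrap53 from 1 to 6, while Pot1b ranked 8 or 9 in every library and Pot1a 7 to 9. Terf2 was the steadiest member in CPM, with a highest library 1.34 times its lowest. Acd spanned 1.46-fold, and Tert spanned 35.8-fold.

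**Figure D1:**
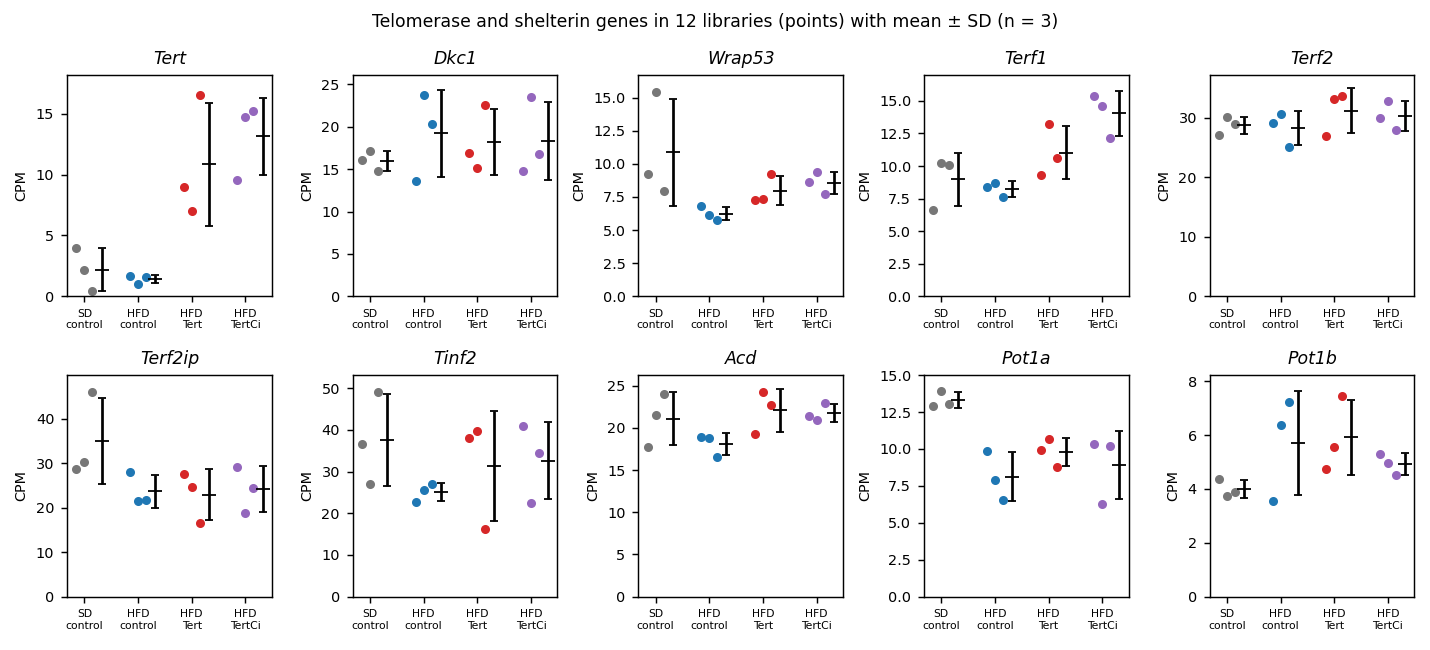
Level of each of the 10 genes (y axis, CPM, starting at 0, own scale per gene) in the 4 groups (x axis). Points are single libraries in order of replicate number, and bars are the group mean ± SD (n = 3). Tert separates both knock-in groups (6.99 to 16.6 CPM) from both control groups (0.463 to 3.97 CPM), and Terf2 lies between 25.02 and 33.6 CPM in all 12 libraries.

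The libraries held 16430330 to 19486965 counts. The labelled tissue was checked with marker lists: all 6 adipose progenitor, 6 macrophage and 6 endothelial markers were counted in every group. Summed macrophage markers ran from 338 to 555 CPM in SD control, 1207 to 3178 in HFD control, 270 to 1319 in HFD Tert and 394 to 679 in HFD TertCi. Summed adipocyte markers ran from 88.3 to 218 CPM in SD control, 717 to 2691 in HFD control and 167 to 1162 in the cassette groups, and mesothelial markers from 438 to 1329, 281 to 323 and 634 to 1625. Single adipocyte markers did not all follow their sum. On the diet 3 of the 6 had a higher log2 fold change and 3 a lower, 1 of the lower at an edgeR adjusted p = 0.022. With the mean of both cassette groups against HFD control, 4 were higher and 2 lower, 1 of the higher at an edgeR adjusted p = 0.0443. The part of these marker lists in the differences between groups was not tested. A list of 8 epididymal and epithelial genes summed to between 57.2 and 55130 CPM, and its mean log2 CPM over the 8 genes was lowest (0.478 to 5.13) in HFD control replicates 17 and 20, HFD Tert replicate 27 and HFD TertCi replicate 31, against 6.48 to 9.82 in the other 8 libraries. Values with that mean as a covariate, or from the 8 libraries with Crisp1, an epididymal transcript, above 500 CPM (2 per group), are therefore given beside the larger of the differences that they move. In bulk RNA, fewer cells of a type and less RNA per cell cannot be told apart.

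No member passed the edgeR quasi-likelihood test after Benjamini-Hochberg adjustment over all 16713 genes (adjusted p under 0.05). With 3 libraries per group, that does not show that the differences were small. Apart from Tert, the members' log2 fold changes lay between -0.80 (Wrap53, diet) and 0.77 (Terf1, HFD TertCi against HFD control). On the high-fat diet, HFD control against SD control, 0 of 10 members were called, where 0.0479% of all genes were. At an unadjusted p under 0.05 there were 2 of 10 (24.1% of all genes), and DESeq2 called 1 of 10 (12.9%), which was Pot1a. For 4 of 10 the libraries of the groups did not overlap (25.5% of all genes), and Wrap53, Tinf2, Pot1a and Terf2ip were all lower on the high-fat diet. On the unadjusted count the members' share lay near that of all genes. The median log2 fold change was -0.39 over the 10 members and -0.075 over all genes, with 2 members higher and 8 lower. Scaling by library size alone moved the median of all genes to -0.28.

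Both cassettes were compared with the same 3 HFD control libraries, so these comparisons share their controls. For HFD Tert, edgeR called 0 of 10 members (0% of all genes), 1 of 10 had an unadjusted p under 0.05 (16.4%), and DESeq2 called 1 of 10 (5.12%). For HFD TertCi, edgeR called 0 of 10 (0.012% of all genes), 2 of 10 had an unadjusted p under 0.05 (14.7%), and DESeq2 called 1 of 10 (4.3%). The DESeq2 call was Tert each time. Libraries did not overlap for 4 of 10 members with HFD Tert (21.1% of all genes) and for 4 of 10 with HFD TertCi (21.5%). In each comparison these were Tert, Terf1, Wrap53 and Acd, all higher with the cassette. Tert is the gene that the cassettes carry, so its place in these counts, the medians and the pooled counts below follows from the design. Median log2 fold changes of the 10 members were 0.28 with Tert and 0.20 with TertCi, beside -0.053 and -0.039 over all genes. With the mean of both cassette groups against HFD control, edgeR called 0 of 10 members (0.168% of all genes), 2 of 10 had an unadjusted p under 0.05 (21%), DESeq2 called 1 of 10 (9.41%), and 4 of 10 did not overlap (13%).

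Active and inactive Tert were also set against each other, the comparison that isolates catalytic activity in this design. No member was called by edgeR (0 of 10, where 0% of all genes were), none by DESeq2 (0 of 10, against 0.0544%), and 0 of 10 had an unadjusted p under 0.05 (1.36%). Libraries overlapped for all 10 members, with 5.13% of all genes not overlapping. The largest difference in size was that of Terf1, a log2 fold change of -0.35 ± 0.257 (SE) with a 95% interval of -0.92 to 0.22. For Dkc1 the interval ran from -0.62 to 0.59 and for Terf2 from -0.33 to 0.42, so differences inside those bounds remained compatible with these libraries. The bounds are no limit of detection. Terf1 with TertCi against HFD control, at 0.77 with an interval of 0.20 to 1.34, was not called either (edgeR adjusted p = 0.243). Over any of the 4 groups, the edgeR F-test called 0 of 10 members (0.012% of all genes), with 2 of 10 at an unadjusted p under 0.05 (20.2%) and 1 of 10 called by DESeq2 (13.8%).

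**Figure D2:**
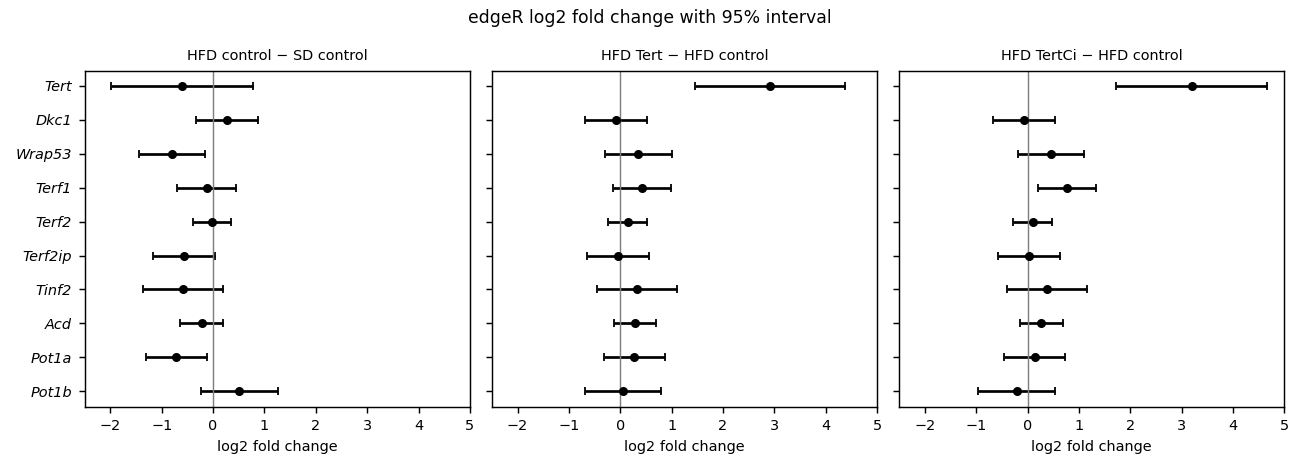
Log2 fold change from the edgeR fit (x axis) of each of the 10 genes (y axis) in 3 comparisons, with bars for the 95% interval. Tert lies at 2.92 and 3.20 in the cassette comparisons, and the other 9 genes lie between -0.80 and 0.77 in all 3 panels.

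Because the cassette ran from the p21 promoter, the sequences before the starts of Cdkn1a and of the cells' own Tert gene were set side by side. Cdkn1a lies at chr17:29090976-29100727 on the plus strand (GRCm38, GENCODE M21) and Tert at chr13:73626911-73649843 on the plus strand, with 16 merged exons. The RefSeq table (GRCm38.p6) gives a pair of starts for Cdkn1a and 1 for Tert. The 250 bases before each are printed 5′ to 3′ on the plus strand. Which of these bases the knock-in allele holds is not given in the sources used here. Capitals mark the motifs found on either strand.

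Cdkn1a window 1, chr17:29090729-29090978: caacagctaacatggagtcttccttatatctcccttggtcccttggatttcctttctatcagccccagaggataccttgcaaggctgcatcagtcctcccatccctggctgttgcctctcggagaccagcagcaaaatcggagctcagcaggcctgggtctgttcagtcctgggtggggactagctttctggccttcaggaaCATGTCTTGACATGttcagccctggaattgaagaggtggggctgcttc
Cdkn1a window 2, chr17:29093519-29093768: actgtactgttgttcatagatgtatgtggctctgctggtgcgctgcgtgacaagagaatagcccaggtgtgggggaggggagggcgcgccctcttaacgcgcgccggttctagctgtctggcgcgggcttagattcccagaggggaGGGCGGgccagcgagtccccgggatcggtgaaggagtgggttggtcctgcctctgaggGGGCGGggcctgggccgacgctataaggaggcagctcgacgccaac
Tert, chr13:73626661-73626910: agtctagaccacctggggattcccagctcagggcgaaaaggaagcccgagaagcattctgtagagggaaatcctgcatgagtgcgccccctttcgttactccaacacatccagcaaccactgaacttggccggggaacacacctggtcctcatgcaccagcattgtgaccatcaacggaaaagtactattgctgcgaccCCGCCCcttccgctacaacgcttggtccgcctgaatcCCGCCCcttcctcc

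In window 1 of Cdkn1a the capitals show 1 paired core of the p53 element (CATGNNNNNNCATG), which 0.464% of 32536 windows of this length held. Window 2 of Cdkn1a and the Tert window each held 2 GC boxes (GGGCGG or its reverse complement), a motif present in 33% of windows. The E-box CACGTG, the Myc-type motif present in 6.04% of windows, was in none of the 3 windows. The 3 motifs do not overlap one another in these windows. A match is a run of letters and no measure of binding.

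Tert was the member with the widest range. In CPM it stood at 3.97, 2.13 and 0.463 in SD control, 1.66, 1.02 and 1.61 in HFD control, 8.99, 6.99 and 16.6 in HFD Tert, and 9.54, 14.7 and 15.2 in HFD TertCi. All 6 cassette libraries lay above all 6 control libraries, and the order of the group means was HFD TertCi, HFD Tert, SD control and HFD control, with overlap between HFD TertCi and HFD Tert and between the control groups. The log2 fold change against HFD control was 2.92 ± 0.658 (SE, edgeR adjusted p = 0.187) for HFD Tert and 3.20 ± 0.665 (edgeR adjusted p = 0.154) for HFD TertCi. For the mean of both it was 3.06 ± 0.624 (edgeR adjusted p = 0.0560), with a 95% interval of 1.68 to 4.43. These p-values moved across the threshold with the fit. With the epithelial mean as a covariate edgeR gave adjusted p = 0.0390, 0.0411 and 0.0171 for the same 3 comparisons, and DESeq2 gave 0.000984, 0.000222 and 1.33e-05. In the 8 libraries with Crisp1 the log2 fold changes were 2.57, 3.20 and 2.88 (edgeR adjusted p = 0.283, 0.361 and 0.185). As a single value, mean log2(CPM + 0.1) was 2.94 higher in the 6 cassette libraries than in the 3 HFD control libraries (2-sided exact permutation p = 0.0119, the smallest that 84 splits allow), higher in 6 of 6.

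Relative to its mean, Tert varied most between libraries on the standard diet, while in CPM its SD was largest in HFD Tert (5.05). SD control held 8 to 78 Tert counts per library and HFD control 17 to 30, so the diet comparison had a log2 fold change of -0.61 ± 0.626 (SE, edgeR adjusted p = 0.550). Without SD control replicate 1, the highest of its group, that value was 0.13. The biological coefficient of variation of Tert in the fit was 0.542, at percentile 72.7 of all genes, against 0.220 for Terf2 (percentile 2.64) and 0.239 for Acd (percentile 7.38).

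The added feature mCherry_Tert, whose sequence is not given in the sources used here, was read beside Tert. It had 0 counts in each of the 6 control libraries, a count that allows up to 0.145 to 0.180 CPM, and 33, 37 and 48 counts in HFD Tert and 41, 86 and 57 in HFD TertCi. The mCherry_Tert counts came to 22.2% ± 5.65 (SD, n = 3) of the Tert counts in HFD Tert and to 26.1% ± 10.1 in HFD TertCi, and these ranges overlapped. Counting error alone is covered by that limit. How reads were divided between both names is not given. Adding the mCherry_Tert counts to Tert raised the log2 difference between cassette and HFD control libraries from 2.94 to 3.25.

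Tert remained a small fraction of Cdkn1a in every group. Cdkn1a stood at 213, 261 and 150 CPM in SD control, 226, 425 and 367 in HFD control, 237, 267 and 433 in HFD Tert, and 222, 478 and 265 in HFD TertCi. The groups overlapped. Taken per kb, Tert was 2.12% ± 0.425 (SD, n = 3) of Cdkn1a in HFD Tert and 2.72% ± 0.830 in HFD TertCi, beside 0.292% ± 0.153 in HFD control and 0.619% ± 0.493 in SD control. These percentages use the exon length of the cells' own Tert gene and leave out the mCherry_Tert counts. The length of the cassette transcript is not given in the sources used here. Over the 6 cassette libraries Tert and Cdkn1a had Pearson's r = 0.680 (exact permutation p = 0.193) and Spearman's rho = 0.371 (exact permutation p = 0.497). Without the 2 libraries farthest from the median of Cdkn1a, HFD Tert replicate 27 and HFD TertCi replicate 31, r was 0.126 over 4 libraries. The relation thus rested on those 2, which are also among the 4 lowest in the epithelial list. The part of that list in the relation was not tested. Tert and mCherry_Tert had r = 0.705 (exact permutation p = 0.0764) and rho = 0.714 (exact permutation p = 0.136) over the same 6 libraries. Here the 2 libraries left out were those farthest from the median of mCherry_Tert. Over the 4 that remained, r was 0.974 (exact permutation p = 0.0833) and rho 0.8 (exact permutation p = 0.333). Of 3 relations tested, the adjusted p-values of the r values over 6 libraries were 0.193 for Cdkn1a and 0.115 for mCherry_Tert, and of the rho values 0.497 and 0.204.

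**Figure D3:**
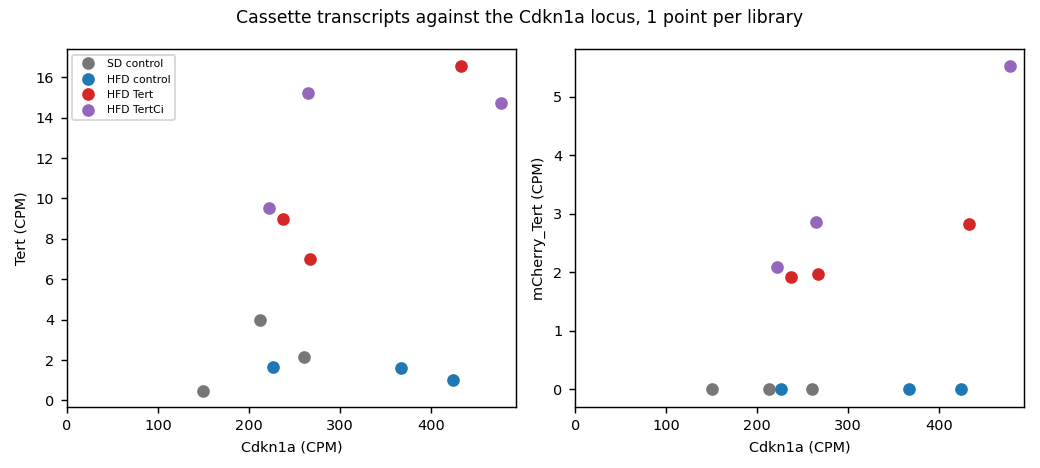
Tert (left y axis, CPM) and mCherry_Tert (right y axis, CPM) against Cdkn1a (x axes, CPM), 1 point per library, coloured by group. Cassette libraries lie at 6.99 CPM of Tert or more, and the 6 control libraries lie at 0 of mCherry_Tert across Cdkn1a levels of 150 to 425 CPM.

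Genes whose log2 CPM followed that of Tert closely over the 12 libraries, among 16711 genes, included Col9a3 (Pearson's r 0.89), Clasrp (0.89), Actc1 (0.88) and Spata13 (0.88). mCherry_Tert itself had 0.91. Col9a3, a collagen chain, was at 1.05 ± 0.192 CPM (SD, n = 3) with the HFD control, 2.98 ± 0.560 with HFD Tert and 2.56 ± 0.368 with HFD TertCi. Spata13, a guanine nucleotide exchange factor, was at 75.4 ± 8.17, 131 ± 16.5 and 147 ± 34.5 CPM in the same groups. These coefficients describe the 12 libraries, which also share the differences in composition given above, and the genes were picked for their high coefficients.

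Dkc1 (chrX:75095854-75109777, plus strand, 15 merged exons) stood at 16.04, 17.2 and 14.8 CPM in SD control, 13.6, 23.8 and 20.3 in HFD control, 16.9, 15.2 and 22.6 in HFD Tert, and 14.7, 23.6 and 16.8 in HFD TertCi. The 4 libraries above 20 CPM came from 3 groups, and all groups overlapped. Its log2 fold change was 0.26 ± 0.274 (SE, edgeR adjusted p = 0.558) for the diet, 0.020 with the epithelial covariate and 0.085 without HFD control replicate 17. It was -0.072 with the mean of both cassettes, a value whose sign turned under library size scaling (0.043). The same 4 libraries were those lowest in the epithelial list: Dkc1 was at 20.3 to 23.8 CPM there and at 13.6 to 17.2 CPM in the other 8. Of the members, Dkc1, Terf2ip and Pot1a separated those 4 libraries from the other 8. A like separation was found in 23% of all genes, and its cause was not tested. Dkc1 also moved with a list of 16 proliferation genes over the 12 libraries (r = 0.692, permutation p = 0.0151, adjusted over 3 relations 0.0453; rho = 0.524, permutation p = 0.0834, adjusted 0.204). Taken as deviations from the group means, r was 0.671 (permutation p = 0.0165). The relation did not hold under library size scaling (r = 0.483, permutation p = 0.112) or without the 2 libraries farthest from the median (r = 0.458, permutation p = 0.183).

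Wrap53 (chr11:69561758-69580255, minus strand, 11 merged exons) stood at 9.22, 15.5 and 7.94 CPM in SD control, 6.79, 6.13 and 5.79 in HFD control, 7.30, 7.37 and 9.23 in HFD Tert, and 8.62, 9.40 and 7.72 in HFD TertCi. The 3 HFD control libraries were the lowest of the 12, and SD control replicate 2 stood far above the rest. The diet gave a log2 fold change of -0.80 ± 0.294 (SE, edgeR adjusted p = 0.147), with an unadjusted p of 0.0202. Without SD control replicate 2 it was -0.46, and in the 8 libraries with Crisp1, which leave out that replicate too, -0.41. Against HFD control, Wrap53 was at 0.35 ± 0.293 with Tert and 0.46 ± 0.293 with TertCi (edgeR adjusted p = 0.562 and 0.486), and in the 8 libraries with Crisp1 at 0.18 and 0.33. Its gene model does not overlap that of its neighbour Trp53 in the annotation.

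Of the double-strand binding proteins, Terf1 (chr1:15805646-15844052, plus strand, 10 merged exons) was the member other than Tert with the largest cassette values. It stood at 6.62, 10.2 and 10.1 CPM in SD control, 8.40, 8.72 and 7.59 in HFD control, 9.28, 13.2 and 10.6 in HFD Tert, and 15.4, 14.6 and 12.1 in HFD TertCi. All 6 cassette libraries were above the 3 HFD control libraries, the HFD Tert libraries overlapped those of SD control, and the HFD TertCi libraries lay above those of both control groups. Against HFD control the log2 fold change was 0.42 ± 0.258 (SE, edgeR adjusted p = 0.424) with Tert and 0.77 ± 0.259 (edgeR adjusted p = 0.243) with TertCi. With the mean of both it was 0.60 ± 0.229 (edgeR adjusted p = 0.178), with an unadjusted p of 0.0248. It ran from 0.52 to 0.65 over fits that each left out 1 library, was 0.60 with the epithelial covariate, and was called in 0 of 20 alternatives. For the diet it was -0.12 ± 0.258.

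Terf2 (chr8:107069400-107096547, minus strand, 11 merged exons) was nearly level. It stood at 27.1, 30.02 and 28.9 CPM in SD control, 29.2, 30.6 and 25.02 in HFD control, 26.8, 33.1 and 33.6 in HFD Tert, and 29.99, 32.8 and 27.9 in HFD TertCi. All groups overlapped. The 95% interval of its log2 fold change was -0.39 to 0.35 for the diet, -0.23 to 0.51 for Tert and -0.28 to 0.47 for TertCi, the narrowest of the members. A change within those bounds remained compatible with these libraries.

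Terf2ip (chr8:112011398-112020528, plus strand, 3 merged exons) stood at 28.7, 30.3 and 46.1 CPM in SD control, 28.0, 21.5 and 21.6 in HFD control, 27.5, 24.7 and 16.5 in HFD Tert, and 29.1, 18.7 and 24.5 in HFD TertCi. SD control replicate 3 stood alone at the top, and it was also the library with the highest epithelial sum, 55130 CPM. The diet gave a log2 fold change of -0.56 ± 0.274 (SE, edgeR adjusted p = 0.233), -0.31 without SD control replicate 3 and -0.33 with the epithelial covariate. In the 4 libraries lowest in the epithelial list Terf2ip was at 16.5 to 21.6 CPM, below the 24.5 to 46.1 CPM of the other 8, a separation found in 23% of all genes. With Tert and TertCi the values were -0.050 ± 0.273 and 0.024 ± 0.273, and their signs turned with several settings.

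Tinf2 (chr14:55674689-55681820, minus strand, 5 merged exons) had, in HFD Tert, the widest spread of the shelterin genes. It stood at 36.7, 27.1 and 49.1 CPM in SD control, 22.7, 25.7 and 26.9 in HFD control, 38.1, 39.8 and 16.2 in HFD Tert, and 41.0, 22.5 and 34.5 in HFD TertCi. HFD Tert replicate 27 and HFD TertCi replicate 31, the lowest of their groups, were also lowest there in the epithelial list. HFD control went the other way: replicates 17 and 20, lower in that list, had more Tinf2 than replicate 15. The 4 libraries lowest in the list (16.2 to 26.9 CPM) overlapped the other 8 (22.7 to 49.1 CPM). The part of that list in the Tinf2 values was not tested. The diet gave -0.58 ± 0.356 (SE, edgeR adjusted p = 0.324), which was -0.18 with the epithelial covariate, -0.83 in the 8 libraries with Crisp1 and -0.35 without SD control replicate 3. With Tert the value was 0.32 ± 0.356, which was 0.12 when HFD Tert replicate 26 was left out and 0.64 when replicate 27 was, and with TertCi 0.38 ± 0.356. The epithelial covariate gave 0.13 with Tert and 0.14 with TertCi, and the 8 libraries with Crisp1 gave 0.69 and 0.64. Exons of Tinf2 share 1540 bases with Gmpr2 on the opposite strand, and since the strand setting of the counting is not given, reads there cannot be assigned to either with certainty.

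Acd (chr8:105695860-105701102, minus strand, 11 merged exons), the shelterin subunit that recruits telomerase, stood at 17.8, 21.6 and 24.0 CPM in SD control, 18.9, 18.8 and 16.6 in HFD control, 19.3, 24.2 and 22.7 in HFD Tert, and 21.4, 20.9 and 23.0 in HFD TertCi. The cassette libraries were all above the HFD control libraries, by a gap of less than 1 CPM at the nearest pair, and SD control overlapped every group. The log2 fold change was 0.29 ± 0.188 (SE, edgeR adjusted p = 0.452) with Tert, 0.27 ± 0.187 (edgeR adjusted p = 0.524) with TertCi and -0.22 ± 0.187 for the diet. Acd shares 1208 exonic bases with Carmil2, named Rltpr in the tables, on the opposite strand. Rltpr had 37 to 93 counts per library and Acd 278 to 458.

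The POT1 genes differed in direction on the high-fat diet. Pot1a (chr6:25743737-25809246, minus strand, 20 merged exons), which in mice guards the ends against the damage response, stood at 12.9, 13.9 and 13.0 CPM in SD control, 9.89, 7.88 and 6.57 in HFD control, 9.92, 10.7 and 8.76 in HFD Tert, and 10.3, 6.25 and 10.2 in HFD TertCi. All 9 HFD libraries lay below the 3 SD libraries, and the HFD groups overlapped one another. The diet gave a log2 fold change of -0.71 ± 0.270 (SE, edgeR adjusted p = 0.158, unadjusted 0.0237), and DESeq2 gave -0.73 (adjusted p = 0.0440). It was -0.56 with the epithelial covariate and -0.55 in the 8 libraries with Crisp1 (edgeR adjusted p = 0.191 and 0.420). Pot1a was at 6.25 to 8.76 CPM in the 4 libraries lowest in the epithelial list and at 9.89 to 13.9 CPM in the other 8, a separation found in 23% of all genes. Macrophage markers were higher in HFD control than in SD control, as given above. The part of both lists in the diet difference was not tested. With Tert and TertCi it had 0.27 ± 0.270 and 0.14 ± 0.270.

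Pot1b (chr17:55651951-55712628, minus strand, 18 merged exons), which limits resection of the C-rich strand at mouse telomeres, stood at 4.38, 3.73 and 3.88 CPM in SD control, 3.54, 6.37 and 7.23 in HFD control, 4.73, 5.55 and 7.46 in HFD Tert, and 5.31, 4.96 and 4.51 in HFD TertCi. Both cassette groups lay above SD control, while HFD control replicate 15 was the lowest library of all. The diet gave 0.51 ± 0.337 (SE, edgeR adjusted p = 0.357), which was 0.31 when HFD control replicate 20 was left out and 0.77 when replicate 15 was. With the epithelial covariate it was 0.30, and in the 8 libraries with Crisp1 0.25. Taken per kb, Pot1b made up 33.1% ± 2.58 (SD, n = 3) of the sum of both genes in SD control, 52.9% ± 14.2 in HFD control, 49.5% ± 7.78 in HFD Tert and 48.2% ± 7.56 in HFD TertCi. The single libraries were at 35.8%, 30.6% and 32.9% in SD control and at 37.0%, 57.1% and 64.4% in HFD control, so the groups did not overlap. The 4 libraries lowest in the epithelial list, which include both high HFD control libraries, had shares of 56.6% to 64.4%, and the other 8 had 30.6% to 46.1%. The part of that list in the diet difference was not tested. The difference of 19.8 percentage points had a 2-sided exact permutation p = 0.1, the smallest that 20 splits of 3 against 3 allow. The cassette groups differed from HFD control by -3.38 and -4.67 percentage points (2-sided exact permutation p = 0.9 and 0.7). The share rested on 174 to 364 counts of both genes together in each library, and Pot1a and Pot1b are paralogs between which the counting could misplace reads.

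**Figure D4:**
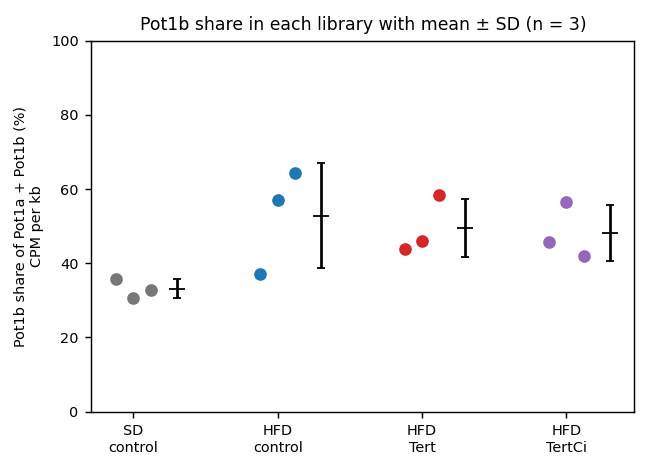
Share of Pot1b in the sum of Pot1a and Pot1b (y axis, %, from CPM per kb) in the 4 groups (x axis), with points for libraries and bars for mean ± SD (n = 3). The SD control libraries lie at 30.6% to 35.8%, and the other 9 libraries lie at 37.0% to 64.4%.

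**Figure D5:**
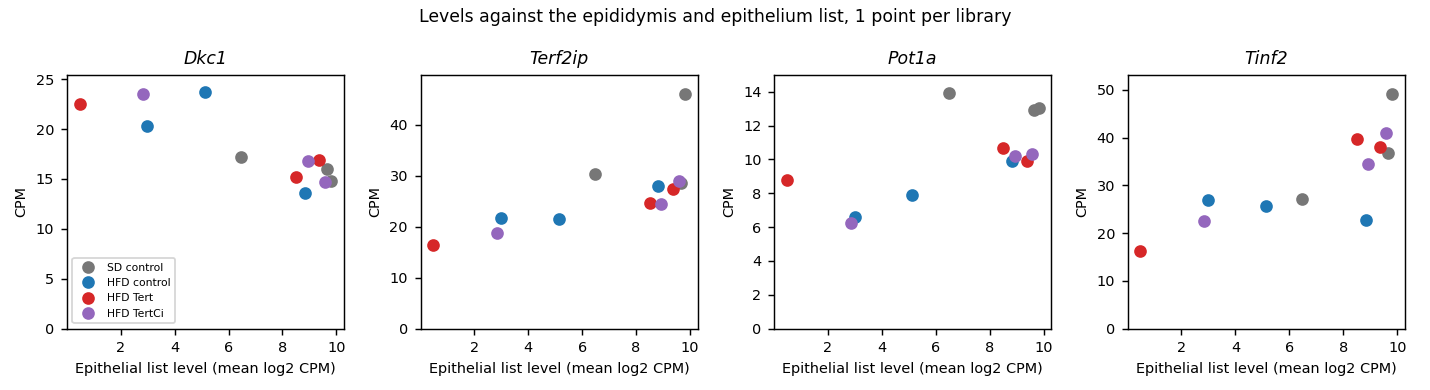
Level of Dkc1, Terf2ip, Pot1a and Tinf2 (y axes, CPM) against the mean log2 CPM of the epididymal and epithelial list (x axes), 1 point per library, coloured by group. In the 4 libraries lowest in the list (0.478 to 5.13) Dkc1 lies at 20.3 CPM or more and Pot1a at 8.76 CPM or less. Of all genes, 23% separate these 4 libraries from the other 8.

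Genes that act with the members were read from lists set by function. In the diet comparison and in the mean of both cassettes against HFD control, edgeR called 0 genes of any of them. At an unadjusted p under 0.05 the share over all genes was 24.1% for the diet and 21% for the pooled cassettes, and the counts that follow were near or under those shares. Of 14 tested genes of telomerase assembly, 1 was higher and 1 lower on the diet at an unadjusted p under 0.05, with a list median log2 fold change of 0.031. These were Exosc10, a nuclear exosome subunit (0.57 ± 0.255, SE, edgeR adjusted p = 0.203), and Parn, the deadenylase that matures Terc (-0.73 ± 0.329, edgeR adjusted p = 0.205). Terc itself, which lacks a poly-A tail, had 0 to 6 counts per library and was not tested. Ruvbl1, an ATPase of telomerase assembly, had 0.72 ± 0.341 with the cassettes (edgeR adjusted p = 0.258). The 3 genes of the CST complex, which ends telomerase action and fills in the C-rich strand, gave 0 at an unadjusted p under 0.05 in either comparison, with medians of -0.21 and 0.12.

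Among 17 genes of telomere replication, end processing and tankyrase, 2 were higher on the diet at an unadjusted p under 0.05 (24.1% of all genes in either direction; list median 0.093), led by Daxx, a histone H3.3 chaperone, at 28.4 ± 5.91 CPM in SD control and 50.1 ± 7.85 in HFD control (SD, n = 3 each; log2 fold change 0.82 ± 0.209, SE, edgeR adjusted p = 0.0761). With the cassettes 4 were lower at an unadjusted p under 0.05 (21% of all genes in either direction) and the list median was -0.33, beside -0.053 over all genes. Tnks, a tankyrase, stood at 38.0 ± 11.2 CPM (SD, n = 3) in HFD control and 16.5 ± 5.20 (SD, n = 6) in the cassette libraries. Its log2 fold change was -1.21 ± 0.447 (SE, edgeR adjusted p = 0.168). Dclre1b, the Apollo nuclease that TRF2 brings to telomeres, had -0.86 ± 0.338 (edgeR adjusted p = 0.185). Of 13 genes of damage signalling and repair, 1 was lower on the diet at an unadjusted p under 0.05. This was Xrcc5, the Ku80 subunit (-1.51 ± 0.671, edgeR adjusted p = 0.201). With the cassettes 1 was higher, Rnf8, a ubiquitin ligase (0.51 ± 0.179, edgeR adjusted p = 0.154). Of 16 proliferation genes 3 were higher on the diet at an unadjusted p under 0.05, a share under the 24.1% of all genes (list median 0.46), led by Mki67 (2.02 ± 0.538, edgeR adjusted p = 0.0822). With the cassettes that list gave 0 in either direction (median -0.0091). Sun1 was the only tested gene of a list for the meiotic telomere complex, at -0.31 ± 0.186 on the diet (edgeR adjusted p = 0.321).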

How the data were processed

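RNA-seq counts from 12 libraries were used, 3 in each of 4 groups taken from the sample labels. The authors deposited raw counts per gene, 1 table per library, per the file headers. The submitters' processing notes name Subread, SAMtools, featureCounts 1.6.4 and mm10 (the GRCm38 build); the annotation and the strand setting are not given in the sources used here. RNA was poly-T selected and primed with random hexamers, per the labels' protocols. Lines without a gene name numbered 0.

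Counts were tested with edgeR 4.0.16 in R 4.3.3: filterByExpr (16713 of 24422 genes kept), TMM factors (0.854 to 1.15) and 1 robust quasi-likelihood fit over the 4 groups with no covariate (8 residual degrees of freedom). Benjamini-Hochberg adjustment ran over all genes tested, and an adjusted p-value under 0.05 counted as called. Depth was 16430330 to 19486965 counts per library. Replicates differed by more than sampling noise (chi-square per degree of freedom 20.5 to 335). Permutation tests used numpy 2.4.6, with ranks from scipy 1.17.1, on log2(CPM + 0.1) or on percentages. They were exact except for the relation of Dkc1 with proliferation, which drew random pairings of log2 CPM values. Gene models came from GENCODE M21 (23376 symbols matched) and promoters from RefSeq GRCm38.p6 (9 of 10 members had an entry).

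Alternatives were RLE or library-size scaling, no low-count filter, DESeq2 1.42.0, limma-voom (limma 3.58.1), only the groups compared, an epithelial covariate, each library left out, and, added after the data were seen, only libraries with Crisp1 above 500 CPM. The scripts were tested on simulated data. The members and lists were chosen with earlier results of these data known. Genes named beside the members were the 2 of smallest p per functional list in the diet and pooled cassette comparisons, with those named in the text taken from them, and the 5 with the highest correlation with Tert, of which 1 is not reported here.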

Additional observations from a re-analysis of the deposited data

How the results depend on the processing

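No paired analysis was possible because no replicate number occurs in more than 1 group. Of the counts of members called, 0 in each comparison by edgeR, DESeq2 gave 1 in the diet, Tert, TertCi, pooled cassette and any-group tests, and the epithelial covariate gave 1 in all of these but the diet. Only the groups compared gave 1 for the pooled cassettes. Leaving out 1 library gave 0 to 1 for the pooled cassettes (1 without SD control replicate 3 or HFD Tert replicate 27) and 0 to 1 for any group (1 without SD control replicate 3). The cause was not tested. Tert kept its direction in every alternative of the Tert, TertCi and pooled comparisons, from 2.48 to 3.38. The correlation of Dkc1 with proliferation was 0.483 under library-size scaling and 0.458 without the 2 libraries farthest from the median.

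Since the main fit called no member, every sign that turned belonged to a log2 fold change that was not called. With library size only, Dkc1 was 0.033 (Tert), 0.053 (TertCi) and 0.043 (pooled), Terf2ip 0.030 (Tert) and 0.076 (pooled), Pot1b 0.046 (pooled) and Acd -0.0015 (Tert against TertCi). With the epithelial covariate, Dkc1 was 0.039 and Terf2ip -0.10 (TertCi) and Pot1b 0.0016 (pooled). With only the groups compared Dkc1 was 0.019 (TertCi), and with limma-voom 0.0064 (Tert against TertCi). With only the libraries with Crisp1, Terf1 was 0.033 and Terf2 0.089 (diet), Terf2ip 0.076 (Tert), Terf2 -0.048 (TertCi), Dkc1 0.026, Tinf2 0.050 and Acd -0.026 (Tert against TertCi), and Terf2 -0.021, Terf2ip 0.093 and Pot1b 0.024 (pooled).

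Leaving out 1 library turned the sign within these ranges: for the diet, Tert -1.09 to 0.13 and Terf2 -0.081 to 0.061. For Tert, Dkc1 ran from -0.28 to 0.10, Terf2ip from -0.20 to 0.14 and Pot1b from -0.20 to 0.25. For TertCi, Dkc1 ran from -0.28 to 0.12 and Terf2ip from -0.13 to 0.18. For Tert against TertCi, Dkc1 ran from -0.20 to 0.21, Terf2 from -0.012 to 0.14, Terf2ip from -0.23 to 0.11, Tinf2 from -0.27 to 0.25, Acd from -0.056 to 0.11 and Pot1a from -0.070 to 0.25. For the pooled cassettes, Dkc1 ran from -0.27 to 0.11, Terf2ip from -0.091 to 0.12 and Pot1b from -0.33 to 0.12. With 3 libraries per group and a common biological coefficient of variation of 0.536, the precision of each member is that of its interval.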

Other observations

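Neighbours whose exons lie on the strand opposite a member's had values of their own. Gmpr2, opposite Tinf2, was at 24.6 ± 2.31 CPM (SD, n = 3) in SD control, 26.2 ± 4.72 in HFD control, 21.6 ± 3.25 in HFD Tert and 19.3 ± 2.10 in HFD TertCi. Its log2 fold change was 0.092 ± 0.206 (SE) for the diet, where Tinf2 had -0.58. Mpp1, which shares 45 exonic bases with Dkc1, was at 27.5 ± 7.79 CPM in SD control and 53.7 ± 22.9 in HFD control, and Gm6793, which shares 108 with Terf2ip, at 11.6 ± 6.50 and 13.8 ± 1.41. Trp53, the gene next to Wrap53, was at 32.3 ± 8.90 CPM in SD control and 54.0 ± 9.64 in HFD control, with a log2 fold change of 0.74 ± 0.258 (SE, edgeR adjusted p = 0.133), where Wrap53 had -0.80.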
